A study of Homo sapiens with 4 samples.

Results

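Ketone body metabolism was followed through OXCT1 and 4 companion enzymes, BDH1, BDH2, ACAT1 and AACS, in 22Rv1 cells, an established human castration-resistant prostate cancer line. OXCT1 was chosen by its measured difference between siRNAs, a signal much lower after an siRNA against OCT1 (siOCT1), and the other genes were chosen by function because they make or use ketone bodies. All 5 were found by gene symbol among 17687 named genes on the array, with 1 probe set each, and all 5 lay among the 8843 genes counted as measured. To be counted, a gene's brightest array had to exceed a log2 signal of 6.51, the median of such maxima. Total RNA was hybridised to 4 whole-transcript arrays, 1 per group. The groups were siOCT1 with 10 nM dihydrotestosterone (DHT), siOCT1 with ethanol vehicle, control siRNA (siControl) with 10 nM DHT, and siControl with vehicle. All cells had spent 3 days in phenol red-free medium with 2.5% charcoal-stripped serum, were transfected 48 h before the ligand and received the ligand for 24 h.

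Single arrays leave every difference without a replicate check, and their small number limits precision. OCT1 is a POU domain transcription factor that binds the octamer sequence. Its gene, POU2F1, was not analysed here, and siOCT1 below names the labelled transfection without a check of knockdown. The background of an array is the 95th percentile of its 612 negative control probe sets, 6.91 and 7.39 on the log2 scale for siOCT1 in DHT and vehicle, and 6.99 and 6.62 for siControl in DHT and vehicle. The 6.51 needed to count as measured lies under each of these, so measured genes include some below background on every array. Of the 8843 measured genes, 6458 lay above background on all arrays. Prostate luminal markers fitted the labelled cell type, with 7 of the 8 on the array above background throughout. The exception was KLK3, which encodes prostate-specific antigen, above background on 2 arrays. Of 11 basal, stromal, endothelial and immune markers on the array, 9 lay below background on every array, among them KRT5, COL1A1, PECAM1 and PTPRC. The summed excess of that list over background was 0.46 and 0.36 log2 units for siOCT1 in DHT and vehicle, against 0 and 0.0034 for siControl. All of the siOCT1 excess came from ACTA2, the smooth muscle actin gene, and its part in the results below was not tested.

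Acetoacetate and 3-hydroxybutyrate are made in liver mitochondria from fatty acid-derived acetyl-CoA and are burnt in heart, muscle, brain and other tissues. To use them, a cell oxidises 3-hydroxybutyrate to acetoacetate, loads acetoacetate with CoA taken from succinyl-CoA, and splits the product into acetyl-CoA for the tricarboxylic acid (TCA) cycle. A second, cytosolic route activates acetoacetate with ATP and feeds lipid synthesis. The question the arrays bear on is how RNA of these enzymes differed between siOCT1 and siControl cells, with and without androgen.

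The OXCT1 signal was lower in siOCT1 cells in both ligand states, to a level at the edge of detection. OXCT1 encodes the mitochondrial transferase that moves CoA from succinyl-CoA to acetoacetate, the committed step of ketone body use. Its log2 signal was 7.15 in DHT and 6.86 in vehicle for siOCT1, against 11.03 in DHT and 10.91 in vehicle for siControl. Both siOCT1 values lay far below both siControl values, and the siOCT1 vehicle value lay 0.54 below the background of its array. The siOCT1 DHT value exceeded its background by 0.24, while the siControl values exceeded theirs by 4.03 and 4.29 in DHT and vehicle. The difference, siOCT1 minus siControl, was -3.88 in DHT, a 14.7-fold lower signal, and the vehicle pair gave at least 11.4-fold lower with the siOCT1 value set to its background. In bulk RNA, fewer cells with a transcript and less of it per cell cannot be told apart. These differences chose the gene, so they are a description and carry no test. Its intronless paralog OXCT2 lay below background on all 4 arrays, at 3.46 and 4.07 for siOCT1 in DHT and vehicle and 3.99 and 4.43 for siControl.

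**Figure D1:**
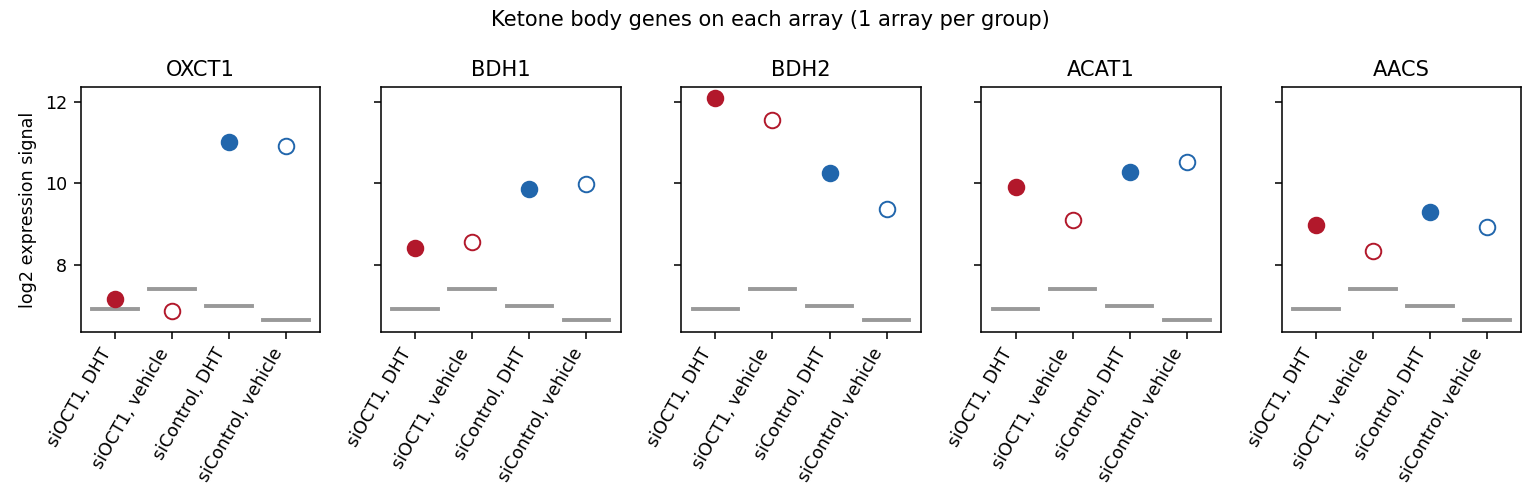
Log2 expression signal of the 5 genes on each array, siOCT1 in red and siControl in blue, DHT filled and vehicle open, with grey bars at the negative control background of each array. OXCT1 lies at 7.15 and 6.86 in siOCT1 cells and at 11.03 and 10.91 in siControl cells, BDH2 lies higher in siOCT1 cells, and each point is 1 array without an error.

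BDH1, also mitochondrial, was lower in siOCT1 cells as well. It is the membrane-bound 3-hydroxybutyrate dehydrogenase that interconverts 3-hydroxybutyrate and acetoacetate, the step before OXCT1 when ketone bodies are used. Its log2 signal was 8.42 in DHT and 8.57 in vehicle for siOCT1, against 9.87 in DHT and 9.99 in vehicle for siControl. Within each siRNA the DHT and vehicle values lay within 0.15 of each other. The differences were -1.45 in DHT and -1.42 in vehicle, signals 2.73-fold and 2.68-fold lower. In an additive model of siRNA and ligand over the 4 arrays BDH1 fell by 1.44 (SE 0.25), with a limma adjusted p of 0.0108 over all measured genes. The residual of this model, with 1 degree of freedom, measures how far the siRNA differences of the 2 ligand states disagree, and says nothing of variation among cultures.

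BDH2 went the other way. It encodes a cytosolic short-chain dehydrogenase of the same reaction, which has been linked in mouse work to a mammalian siderophore and so to iron. Its log2 signal was 12.09 in DHT and 11.56 in vehicle for siOCT1, against 10.25 in DHT and 9.36 in vehicle for siControl. The siOCT1 value exceeded the siControl value by 1.84 in DHT and 2.20 in vehicle, which is 3.58-fold and 4.61-fold. BDH2 rose by 2.02 (SE 0.25) in the additive model, with a limma adjusted p of 0.00394, and 104 of 8843 measured genes had a higher mean difference. The dehydrogenases named for the same substrate thus stood on opposite sides, a contrast shown in the plot of signals by array.

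ACAT1 and AACS had no called difference. ACAT1 is the mitochondrial thiolase that splits acetoacetyl-CoA and also ends isoleucine breakdown. Its log2 signal was 9.92 in DHT and 9.09 in vehicle for siOCT1, against 10.27 in DHT and 10.53 in vehicle for siControl. The siOCT1 value lay below the siControl value with either ligand, but unevenly, by 0.35 in DHT (1.28-fold) and by 1.44 in vehicle (2.71-fold). The additive model gave -0.89 (SE 0.32), limma adjusted p 0.0867, and the unequal pairs enlarge its residual.

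AACS, the cytosolic ligase that activates acetoacetate for lipid synthesis, had log2 signals of 8.97 in DHT and 8.33 in vehicle for siOCT1, against 9.31 in DHT and 8.93 in vehicle for siControl. The siOCT1 value with DHT stood above the siControl value with vehicle. The differences were -0.34 in DHT and -0.60 in vehicle, and the model gave -0.47 (SE 0.26) with a limma adjusted p of 0.230.

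Of the 4 companions, then, 1 rose, 1 fell and 2 did not pass. Both calls were lost with dim values raised to the highest of the 4 backgrounds (limma adjusted p 0.174 for BDH1 and 0.166 for BDH2). In that fit limma called 0 of the 8843 genes for siOCT1, those described further on included, while 2066 had an unadjusted p under 0.05. With the 1109 genes left flat by the raising taken out of the fit, a choice made after seeing the data, both calls held (adjusted p 0.0276 for BDH1 and 0.0129 for BDH2). Over all 8843 measured genes the same model called 9.10% higher and 15.3% lower, and 12.2% passed 1.5-fold upward and 18.7% downward under both ligands. In either direction that is 30.9% of measured genes, beside 18.6% of the 612 negative control probe sets, and 32 of the 87 controls bright enough to count as measured passed it. By single pairs of arrays, 1 of the 4 companions was at least 1.5-fold higher and 1 lower in DHT, where 18.9% and 26.0% of measured genes were. In vehicle 1 was higher and 3 lower, where 22.9% and 28.7% were, and OXCT1 is left out of these counts because its fall chose it. The vehicle count of 3 became 2 with loess centring, positive control centring or 32 added before the logarithm, where AACS stood at -0.55, -0.38 and -0.55. The median difference over all measured genes was -0.07 in DHT and -0.06 in vehicle. Centring arrays on the positive control probe sets moved the vehicle median by 0.21 to 0.15, and moved the vehicle differences of all 5 genes by the same amount, with no change of direction.

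**Figure D2:**
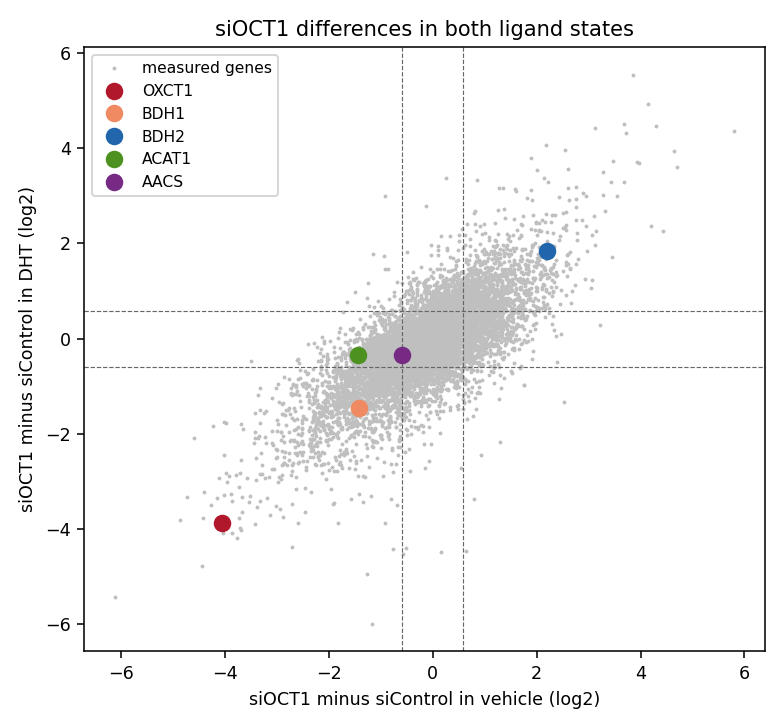
Difference siOCT1 minus siControl in vehicle (horizontal, log2) against that in DHT (vertical, log2) for 8843 measured genes, with dashed lines at 1.5-fold. OXCT1 lies at -4.06 and -3.88 in the lower left, BDH2 at 2.20 and 1.84 in the upper right, and ACAT1 passes the line in vehicle but not in DHT.

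Start regions are shown for OXCT1, BDH1 and BDH2 because these genes had the largest siOCT1 differences of the 5 and differ in direction. The windows come from RefSeq (GRCh38.p14), run 5′ to 3′ on the gene's strand from 250 bases before to 50 bases after an annotated start, and carry GC boxes (GGGCGG, or CCGCCC on the other strand) in capitals.
OXCT1, chr5:41870376-41870675, minus strand: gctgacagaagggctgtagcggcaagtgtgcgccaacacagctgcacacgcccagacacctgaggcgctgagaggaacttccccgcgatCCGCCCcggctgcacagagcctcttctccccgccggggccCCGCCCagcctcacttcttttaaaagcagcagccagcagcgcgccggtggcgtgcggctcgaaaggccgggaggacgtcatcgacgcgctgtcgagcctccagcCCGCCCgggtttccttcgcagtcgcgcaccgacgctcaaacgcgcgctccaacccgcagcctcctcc
BDH1, chr3:197555919-197556218, minus strand: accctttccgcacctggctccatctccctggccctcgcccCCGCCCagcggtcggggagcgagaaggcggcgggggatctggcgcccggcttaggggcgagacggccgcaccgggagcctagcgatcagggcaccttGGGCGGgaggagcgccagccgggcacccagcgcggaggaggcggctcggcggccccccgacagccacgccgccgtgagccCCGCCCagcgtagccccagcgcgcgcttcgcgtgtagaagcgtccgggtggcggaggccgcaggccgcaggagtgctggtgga
BDH2, chr4:103099785-103100084, minus strand: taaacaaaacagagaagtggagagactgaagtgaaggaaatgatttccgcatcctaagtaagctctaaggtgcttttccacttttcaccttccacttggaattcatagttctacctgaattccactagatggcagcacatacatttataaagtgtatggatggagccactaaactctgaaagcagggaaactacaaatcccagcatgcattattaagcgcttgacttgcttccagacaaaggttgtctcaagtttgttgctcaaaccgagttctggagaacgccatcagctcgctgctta
RefSeq gave 8 windows for the 5 genes, and for OXCT1 and BDH1 the GC-rich one of 2 is printed. Which start was in use cannot be read from a gene-level probe set. The octamer ATGCAAAT, with ATTTGCAT on the other strand, is the sequence for which OCT1 is named. It was in 0 of the 8 windows and in 1.77% of 35116 RefSeq windows of that length. The looser ATGCNAAT, which includes the octamer, was likewise in 0 of the 8 and in 2.97% of all windows. AGAACA, a building block of androgen response elements, was in 0 of the 8 and in 14.8% of all windows. The printed OXCT1 and BDH1 windows hold 3 GC boxes each, while the second window of each of these genes and the BDH2 window hold 0, and 45.0% of all windows hold at least 1. G and C made up 68.7% and 36.3% of the printed and second OXCT1 windows and 76.7% and 44.3% of those of BDH1. They made up 42.3% of the BDH2 window, beside a median of 58.7% over all windows. A match or its absence describes these letters only.

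The rest of the pathway was read from lists chosen with earlier results of these data known. OXCT1 and the enzymes of use and synthesis left few further genes to describe. In the synthesis list 3 of 6 genes were measured, BDH1, ACAT1 and CPT1A, and HMGCLL1, a relative of the lyase that releases acetoacetate, lay below background on every array. CPT1A, which admits fatty acids to the mitochondrion, had a log2 signal of 10.81 in DHT and 11.54 in vehicle for siOCT1, against 10.87 and 10.93 for siControl. Its differences of -0.06 and 0.61 had opposite signs, with a limma adjusted p of 0.486. Across all 9 pathway lists, 61 genes other than the 5 were measured, of which limma called 8 higher and 7 lower, 13.1% and 11.5% against 9.10% and 15.3% of all measured genes. The 8 include HMOX1, described below, which counts as measured through its siOCT1 arrays alone.

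The cytosolic list, in which AACS stands beside enzymes that make acetoacetyl-CoA, HMG-CoA and fatty acids, was the one with most falls. Of 7 measured genes 4 fell and 0 rose, 57.1% fallen where 15.3% of all measured genes were. The list median was -1.23 in DHT and -1.03 in vehicle, beside -0.07 and -0.06 over all measured genes. ACAT2, the cytosolic counterpart of ACAT1, fell with differences of -1.97 and -2.93 in DHT and vehicle (limma adjusted p 0.00403). HMGCS1, the cytosolic HMG-CoA synthase, fell with -1.72 and -1.86 (adjusted p 0.00394). ACLY, which makes cytosolic acetyl-CoA from citrate, fell with -1.23 and -1.79 (adjusted p 0.00782), and FASN, the fatty acid synthase, with -2.01 and -1.03 (adjusted p 0.0113). AACS, ACACA and ACSS2 did not pass, with limma adjusted p of 0.230, 0.0705 and 0.388.

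TCA cycle genes, which supply the succinyl-CoA that OXCT1 spends and take up the acetyl-CoA it yields, had 2 of 14 measured genes fallen and 0 risen, with medians of -0.33 and -0.30. The share fallen, 14.3%, is near the 15.3% of all measured genes. IDH3A, a subunit of NAD-dependent isocitrate dehydrogenase, had differences of -1.37 in DHT and -1.34 in vehicle (limma adjusted p 0.0045). SDHD, a membrane anchor of succinate dehydrogenase, had -0.97 and -1.09 (adjusted p 0.0252). SUCLG1, a subunit of the ligase that turns over succinyl-CoA, stood at -0.49 and -0.89 with an adjusted p of 0.0806, and SDHA at -0.80 and -0.60 with 0.0799.

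Mitochondrial fatty acid oxidation, the source of acetyl-CoA for ketone synthesis, had 2 of 16 measured genes risen and 0 fallen, 12.5% risen where 9.10% of all measured genes were, with medians of -0.0016 in DHT and 0.34 in vehicle. DECR1, a reductase for unsaturated fatty acids, had differences of 0.78 and 0.92 (limma adjusted p 0.0356), and HADHB, the thiolase subunit of the trifunctional protein, 0.97 and 0.71 (adjusted p 0.0311). Both calls were lost without the filter on dim genes (adjusted p 0.0563 and 0.0517) and without limma's intensity trend (0.0660 and 0.0703). ACAA2, the last thiolase of the spiral, stood at 0.65 and 0.60 with an adjusted p of 0.114, and ETFB, an electron carrier, at -0.65 and -0.78 with 0.0742.

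Leucine breakdown ends in acetoacetate and acetyl-CoA, and isoleucine breakdown shares ACAT1. The list of both had 1 of 13 measured genes risen and 1 fallen, 7.69% in each direction, below the shares of all measured genes. MCCC2, a subunit of the leucine pathway carboxylase, rose with differences of 0.60 in DHT and 0.76 in vehicle (limma adjusted p 0.0242), a call lost without the filter on dim genes (0.0552) and without the trend (0.110). PPM1K, the phosphatase that activates the branched-chain dehydrogenase, fell with an adjusted p of 0.0164, but lay below background on both siOCT1 arrays. It was at least 3.03-fold lower in DHT and at least 1.01-fold in vehicle, and the call was lost with values raised to the highest background (adjusted p 0.499, and 0.228 without flat genes). BCAT2, the mitochondrial branched-chain aminotransferase, stood at 0.55 and 0.82 with an adjusted p of 0.0749, and passed with loess centring (0.0477) and with arrays centred on positive controls (0.0410).

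Few genes for transport and control of ketone bodies were measured, and limma called none of them. No transporter itself counted as measured. Of 2 measured genes of monocarboxylate transport, both are chaperones of the transporters and neither was called. BSG (basigin) had differences of 0.43 and 0.40 (limma adjusted p 0.130, and 0.0444 with loess centring), and EMB (embigin) 0.64 and 0.40 (adjusted p 0.168). The transporters SLC16A7 and SLC5A12 lay below background on every array. Among regulators, the sirtuin SIRT3 stood at 0.84 and 0.12 (adjusted p 0.259). The nuclear receptor PPARA, which drives ketone synthesis genes in liver, and the ketone-related receptors HCAR2 and FFAR3 lay below background on all 4 arrays.

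Iron handling was listed for the link of BDH2 to iron, with earlier results of these data known. Of its 9 measured genes 5 rose and 0 fell, with a median of 1.23 in each ligand state. The share risen was 55.6%, where 9.10% of all measured genes rose and 15.3% fell. SLC40A1, the iron exporter ferroportin, had log2 signals of 10.11 and 10.34 for siOCT1 in DHT and vehicle, against 7.74 and 7.39 for siControl (limma adjusted p 0.00248). These are 5.18-fold and 7.72-fold higher signals. ACO1, which becomes an iron regulatory protein when iron is scarce, had differences of 1.86 and 1.36 (adjusted p 0.00994). The ferritin light chain gene FTL had 1.23 and 1.47 (adjusted p 0.00522) and the iron sensor FBXL5 1.32 and 1.23 (adjusted p 0.0148). The haem oxygenase gene HMOX1, with both siControl values below background, showed a signal higher by at least 3.50-fold in DHT and by at least 11.1-fold in vehicle. Its siControl values, 5.10 in DHT and 6.13 in vehicle, also lay under the 6.51 needed to count as measured. HMOX1 thus entered the count of 5 through its siOCT1 arrays alone, and its call is a description only. Its limma adjusted p was 0.00121, and raising dim values gave an effect of 2.05 with an adjusted p of 0.224 (0.0247 without flat genes). The transferrin receptor TFRC stood at -0.50 and -1.15 with an adjusted p of 0.0504. It passed among genes above background on all arrays (0.0464) and with arrays centred on positive controls (0.0413), where limma called 5 genes of this list higher and 1 lower.

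**Figure D3:**
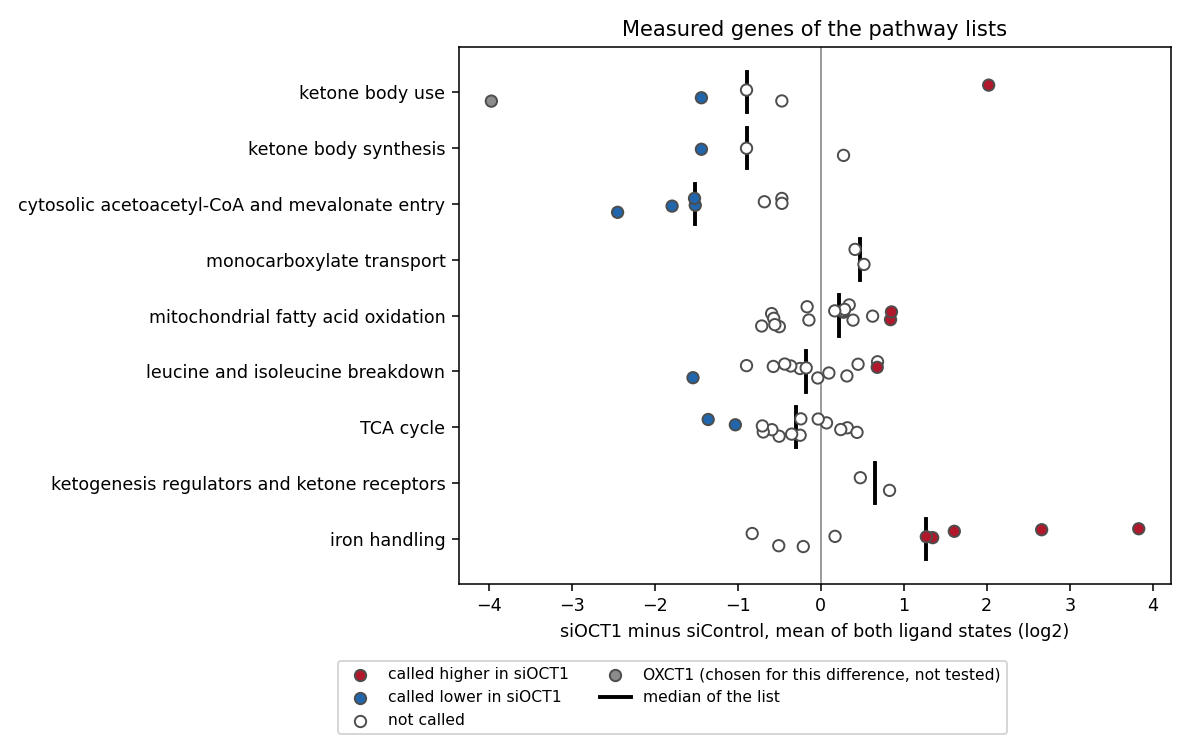
Mean difference siOCT1 minus siControl over both ligand states (log2) for each measured gene of the 9 pathway lists, coloured by the limma call, with OXCT1 in grey as it was chosen for this difference. Black lines are list medians; vertical scatter within a list is for legibility only. The cytosolic list holds 4 of 7 genes called lower, beside 15.3% of all measured genes. The iron handling list holds 5 of 9 called higher, beside 9.10% of all measured genes. HMOX1, among these 5, counts as measured through its siOCT1 arrays alone.

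With DHT, limma called 0 of the 5 enzymes over all genes tested. At an unadjusted p under 0.05 it had 1, BDH2, where 13.5% of all measured genes were under that value. Over all measured genes limma called 0.679% higher and 0.305% lower with DHT. OXCT1, for which the ligand played no part in the choice, had a difference DHT minus vehicle of 0.29 in siOCT1 cells, where the vehicle value lay below background. In siControl cells it was 0.11, a 1.08-fold higher signal. The additive estimate was 0.20 (SE 0.26) with a limma adjusted p of 0.776.

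BDH2 had the highest DHT estimate of the 5, with differences of 0.53 in siOCT1 and 0.89 in siControl cells, 1.44-fold and 1.86-fold. Its additive estimate was 0.71 (SE 0.25), with a limma adjusted p of 0.284, and DHT stood above vehicle under both siRNAs. AACS differed by 0.63 in siOCT1 and 0.37 in siControl cells (adjusted p 0.454). BDH1 differed by -0.15 and -0.13 (adjusted p 0.862), and the siControl value became 0.02 with arrays centred on positive controls.

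ACAT1 was the 1 gene of the 5 whose DHT differences had opposite signs, 0.83 in siOCT1 cells and -0.26 in siControl cells. The first is a 1.78-fold higher signal and the second a 1.19-fold lower one, with all 4 values above background. The change of the DHT response, siOCT1 minus siControl, was 1.08 for ACAT1, a single value with no test, and 451 of 8843 measured genes had a higher one. Of all measured genes 35.5% had a change of at least 1.5-fold in either direction, as did 65.2% of the negative controls. Among the 87 controls bright enough to count as measured, 77 had such a change. For the others the change was 0.18 for OXCT1, -0.03 for BDH1, -0.36 for BDH2 and 0.26 for AACS, all under 1.5-fold.

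By single pairs of arrays, 2 of the 5, ACAT1 and AACS, were at least 1.5-fold higher with DHT in siOCT1 cells, where 14.1% of measured genes were. AACS fell short of that fold with positive control centring (0.57) and with 32 added before the logarithm (0.58), which left 1. In siControl cells 1 was, BDH2, where 15.8% of measured genes were. None of the 5 was lower by that fold with either siRNA, beside 11.8% of measured genes in siOCT1 and 12.8% in siControl cells, and 0 of the 5 passed 1.5-fold under both siRNAs, beside 4.86% of measured genes higher and 4.37% lower. In either direction that is 9.23% of measured genes, and 14.7% of the negative controls passed the same rule. Among the 87 controls bright enough to count as measured, 27 passed it. Among the wider lists limma called 0 of 61 genes with DHT, with 15, or 24.6%, at an unadjusted p under 0.05, beside 13.5% of all measured genes. In fatty acid oxidation ECI2, an enoyl-CoA isomerase, differed by 0.63 in siOCT1 and 2.38 in siControl cells (adjusted p 0.171), and ACADM, the medium-chain dehydrogenase, by 0.85 and 1.59 (adjusted p 0.112). Both passed with arrays centred on positive controls (adjusted p 0.0215 and 0.0250).

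**Figure D4:**
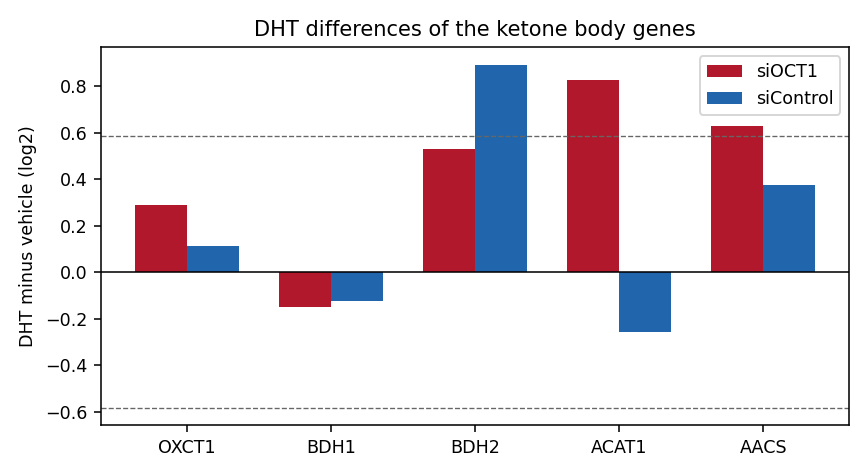
Difference DHT minus vehicle (log2) of the 5 genes in siOCT1 cells (red) and siControl cells (blue), 1 pair of arrays per bar, with dashed lines at 1.5-fold. ACAT1 stands at 0.83 in siOCT1 and -0.26 in siControl cells, and BDH2 at 0.53 and 0.89.

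The profiles of the 5 genes over the 4 arrays were compared by Euclidean distance between log2 values centred on each gene's mean, as a description with 4 points per gene. BDH1 was nearest to OXCT1 at 2.55, then ACAT1 at 3.11 and AACS at 3.51, and BDH2 was farthest at 6.02. The closest pair among the 5 was ACAT1 and AACS at 0.63, followed by BDH1 and ACAT1 at 0.88. The distances from OXCT1 rest largely on the siRNA difference that chose it, and its siOCT1 vehicle value lay below background.

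The 5 measured genes nearest to OXCT1 were CCNA2 at a distance of 0.16, RRM1 at 0.18, FAM72C at 0.21, FAM72D at 0.25 and FAM72B at 0.27, beside a median of 3.95 over all measured genes. Both the small distances and the large median rest largely on the siRNA difference that chose OXCT1. The mean siRNA differences of the 5 genes ran from -4.01 (RRM1) to -3.84 (FAM72D), beside -3.97 for OXCT1. CCNA2 encodes cyclin A2 and RRM1 the large subunit of ribonucleotide reductase, while the FAM72 genes are near-identical copies whose probes may not separate them. CCNA2 had log2 signals of 9.70 in DHT and 9.23 in vehicle for siOCT1, against 13.44 and 13.24 for siControl. RRM1 had 11.45 and 11.28 for siOCT1, against 15.32 and 15.43 for siControl. All 5 lay above background on every array, unlike OXCT1, and all share the 4 arrays with it.

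**Figure D5:**
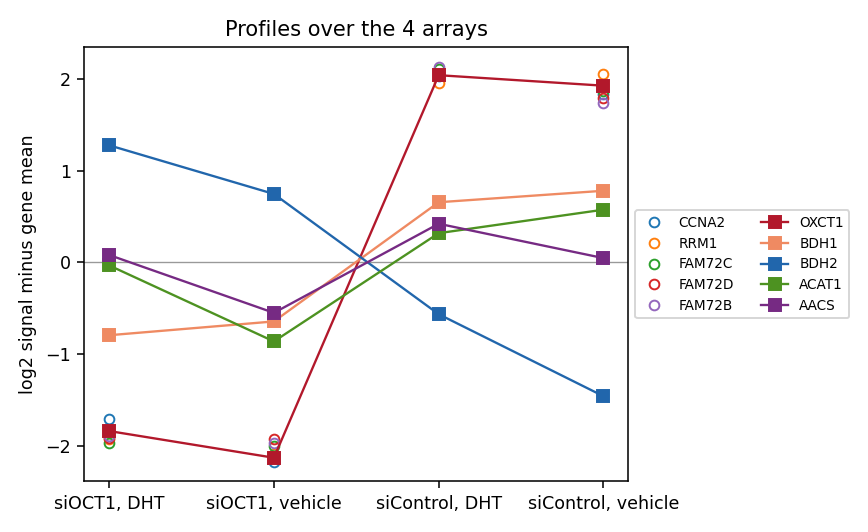
Log2 signal minus each gene's mean on the 4 arrays for the 5 ketone body genes (squares joined by lines) and the 5 genes with the profile nearest to OXCT1 (open circles). The circles lie on the OXCT1 line within a distance of 0.27, while BDH2 runs in the opposite direction.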

How the data were processed

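Biotin-labelled RNA went onto 4 arrays, 1 for each group, per the labels' protocols. According to the submitters' processing notes, the authors ran RMA in Affymetrix Expression Console and deposited log2 signals. Software versions and the genome build are not given in the sources used here. Since RMA equalises the distributions of the arrays, a shift shared by all genes is invisible. That the scale is log2 was judged by the size of the values. On each array 327 to 379 of them exceeded 16, more than a 16-bit scanner can give, and folds therefore refer to the deposited scale.

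Of the 24351 probe sets, the 17709 with exactly 1 symbol in the platform table were used. Probe sets with no symbol or with several were left out. Matching identifiers to RefSeq changed 0 of the names used. Genes with several probe sets (20) were represented by the brightest. Where the dimmer array lay below its background, folds are given as "at least", against that background.

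The additive model was fitted over all 8843 measured genes with limma 3.58.1 (eBayes with an intensity trend, prior degrees of freedom 5.85) in R 4.3.3, with Benjamini-Hochberg adjustment at 0.05. On simulated data for the siOCT1 effect over 8843 genes, it called 54 of 100 genes changed by 1 on the log2 scale, 100 of 100 changed by 3 and 15 of 8643 unchanged. The simulated noise was the same for every gene, unlike that of the arrays. The simulated fit therefore had infinite prior degrees of freedom, against 5.85 for the arrays. Its counts do not give the recovery or false calls to be had on the arrays. "Rose" and "fell" are used of calls it made. Single pairs were counted at 1.5-fold. The members and lists (ketone body use and synthesis, cytosolic acetoacetyl-CoA and mevalonate entry, monocarboxylate transport, mitochondrial fatty acid oxidation, leucine and isoleucine breakdown, TCA cycle, ketogenesis regulators and ketone receptors, iron handling, and 2 marker lists) were chosen with earlier results of these data known. Genes named were the members, the synthesis genes, up to 4 per other list with the largest mean siOCT1 difference, and the 5 nearest to OXCT1. TFRC, FBXL5, ACACA, ACSS2, ECI2, ACADM, SLC16A7, SLC5A12, HCAR2 and FFAR3 were added after their values were seen, as were the marker genes named as examples. Genes of the lists without a value were not analysed here. Python 3.11.15 with pandas 2.3.3 did the rest.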

Additional observations from a re-analysis of the deposited data

Results flagged for a closer look

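The DHT difference of ACAT1 ran in opposite directions under the siRNAs, 0.83 in siOCT1 cells and -0.26 in siControl cells, a change of 1.08 on the log2 scale. All 4 values lay above background, each direction rests on 1 pair of arrays, and the difference between them was not tested.

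The siOCT1 difference of CPT1A was -0.06 in DHT and 0.61 in vehicle, which is a change of its DHT response (siOCT1 less siControl) of -0.68. All 4 values lay above background. The siOCT1 difference of CPT1A in DHT is only a 1.05-fold lower signal. For CPT1A, DHT minus vehicle was -0.73 in siOCT1 cells and -0.06 in siControl cells. Its change of response too rests on single arrays and was not tested. Changes of at least 1.5-fold, as for ACAT1 and CPT1A, were seen in 35.5% of measured genes and in 65.2% of negative controls. They were seen in 77 of the 87 controls bright enough to count as measured.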

How the results depend on the processing

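The 125 recomputed differences of the 5 genes (probe set means, loess centring, positive control centring, 32 added before the logarithm, values raised to the highest background) kept the direction of every difference past 1.5-fold and moved by less than 1.5-fold. AACS crossed the 1.5-fold line, however, in vehicle and in siOCT1 cells, as given with those counts. For OXCT1, siOCT1 minus siControl ranged from -3.88 to -3.61 in DHT and from -4.06 to -3.52 in vehicle. Of 89 recomputed limma effects of the members, which leave out the siOCT1 effect of OXCT1, 87 stayed on their side of the threshold. The exceptions were the siOCT1 calls of BDH1 and BDH2, lost with dim values raised to the highest background (adjusted p 0.174 and 0.166). In the other refits their adjusted p ran from 0.00424 to 0.0276 for BDH1 and from 8.87e-05 to 0.0129 for BDH2. Of 295 effects for the other measured genes named from the pathway lists, 22 lost a call, 15 of them with raised values and flat genes kept, and 7 gained one.

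With dim values raised to the highest background, as planned, limma called 0 genes for siOCT1 instead of 2158, 0 for DHT instead of 87 and 0 in the pathway lists instead of 15. At an unadjusted p under 0.05 it had 2066 for siOCT1 and 705 for DHT. The raising left 1109 genes equal on all 4 arrays, and the prior degrees of freedom were 0.863 in place of 5.85. After this outcome was seen, a fit leaving out those 1109 genes was added, which had prior degrees of freedom of 4.31 and called 1405 genes for siOCT1, 9 for DHT and 14 in the lists. The count for DHT, 87, was 57 without the filter on dim genes, 45 among genes above background on all arrays, 293 with positive control centring and 30 without the trend. The change of the DHT response passed 1.5-fold for 3135 genes. It passed 2-fold for 1202, and 1.5-fold for 5985 without the filter and 2036 among genes above background on all arrays. The count of 15 calls in the pathway lists moved by less than 1.5 times in each of the 9 other limma refits. The causes of these shifts were not tested beyond the number of genes entering. No paired analysis was possible because each group holds 1 array, so that no replicate numbers exist to block on. The additive model itself compares the siRNAs within each ligand state. For dim genes such as OXCT1 in siOCT1 cells, signal over background limits the size that can be read.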
